A study of Mus musculus with 4 samples.

Results

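The footprints of wild-type (WT) mouse embryonic stem cells (ESCs) in the naive ground state were described on their own, from 1 library of a ribosome profiling series of 4 libraries. The series pairs WT cells with cells that lack Mettl3, the catalytic subunit of the enzyme that writes N6-methyladenosine on mRNA, as ESCs and as embryoid bodies. The rule took the WT ESC column alone, summed its coding sequence entries by gene symbol and ranked the genes by their reads and by their reads per coding length. Of 20716 genes in the table, 13277 had a read in WT ESCs. The cells were of the C57BL/6 strain and grew without serum in an N2B27-based medium with human LIF and 2 inhibitors, CHIR99021 at 1 to 3 µM, which blocks GSK3, and PD0325901 at 1 µM, which blocks MEK. Which ESC line was used, and at which passage, is not stated in these sources. There was 1 library and no replicate, so no value below has a replicate error, and the intervals given cover counting error only.

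Ribosome profiling sequences the short stretches of mRNA that ribosomes shield from nuclease. The number of footprints on a coding sequence follows both how much of the mRNA there is and how densely ribosomes cover it, and the 2 cannot be told apart from footprints alone. A long coding sequence holds more ribosomes at the same rate of synthesis, so reads show where the ribosomes of the cell are, and reads per kilobase (kb) of coding sequence come nearer to how many protein molecules are made. Both are relative to this library: no external standard sets a scale of molecules per cell.

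The table counted 30677431 reads for this library, of which 8570204 (27.9%) lay on a gene's coding sequence. Reads without a unique place in the genome made up 55.7%, reads shared between entries 8.71% and reads on no feature 7.70%. This counting leaves gaps that touch the genes below. All 28-nucleotide (nt) windows of the coding sequences were marked, as copied, where the genome holds the same letters elsewhere, or as shared, where another entry of the table overlaps it. Windows that are neither are termed countable here, and reads per countable kb are given beside reads per kb for the 12451 genes with a read and at least 100 such windows. No read was counted for 7439 genes. Of these, 1757 had no countable window at all and 4513 had at least 100. A gene at 0 may hold up to 3 reads by counting error, or 3.5e-05% of gene reads. Of the 3883 genes with 2 or more entries, 2770 were at 0. Mettl3 had 723 reads, or 415 reads per kb, and none of its windows was copied.

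Counted footprints were spread over many genes, with a steep range of levels. The median gene with a read had 171 reads and 121.8 reads per kb. The 90th percentile (1390.4 reads per kb) lay 628-fold above the 10th (2.21). The 10 highest genes held 2.31% of gene reads, the 100 highest 13.2% (95% exact Clopper-Pearson interval 13.16 to 13.21%) and the 1000 highest 49.4%. A set of 1024 genes, 7.71% of those with a read, held 50% of the reads, and 4550 genes held 90%. By reads per kb the 100 highest held 12.2% and 1007 genes made up 50%. By reads per countable kb the 100 highest held 15.2% and 862 genes made up 50%. All 3 measures therefore gave a similar curve, and no gene held more than 0.35% of the counted gene reads. Alignments without a unique place, 55.7% of the counts, were given to no gene, so genes with copies may hold more than is shown.

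**Figure D1:**
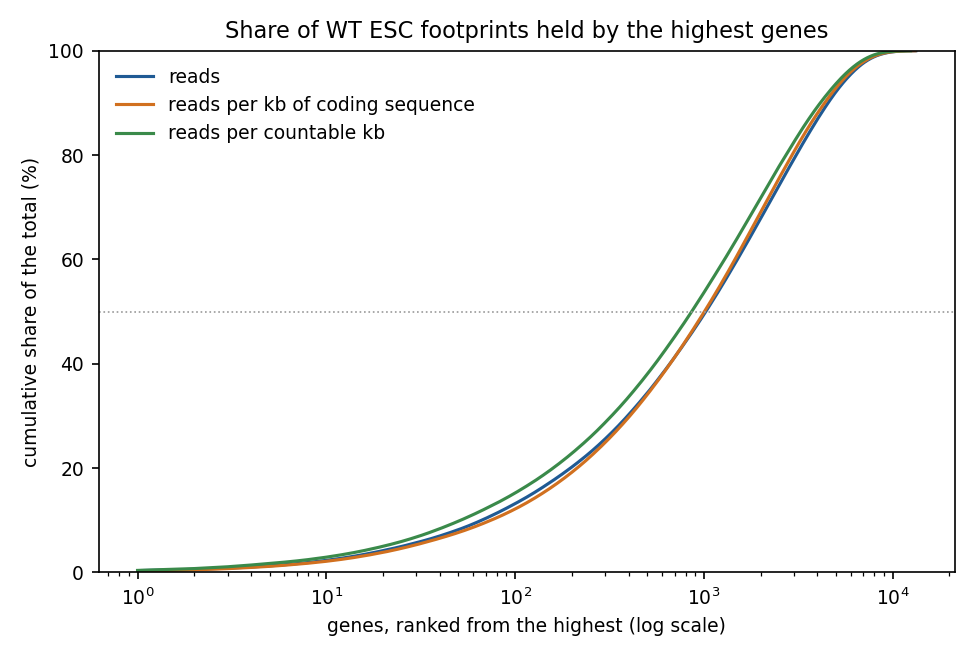
Cumulative share of the total (%) against the number of genes, ranked from the highest (log scale), for reads, reads per kb of coding sequence and reads per countable kb in the 1 WT ESC library. The dotted line marks 50%, which is reached at 1024, 1007 and 862 genes.

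Hsp90ab1, the constitutive cytosolic Hsp90 chaperone, had the most counted footprints of any gene. It lies on chromosome 17 (chr17:45567778-45573261, minus strand, 10 coding exons, build GRCm38.p6) and had 29992 reads, 0.35% of all gene reads. The next was the β-tubulin gene Tubb5 with 20515 reads. It was followed by Atp5b, the catalytic β subunit of mitochondrial ATP synthase, with 19301 reads and by Trim28 with 19294 reads. Trim28 is the co-repressor that KRAB zinc finger proteins recruit to silence endogenous retroviruses. Cdk8, the kinase of the Mediator complex, had 18691 reads, clathrin heavy chain (Cltc) 18633, and Akap12, a scaffold that anchors protein kinase A, 18326. Asns, asparagine synthetase, stood at place 10 with 17402 reads.

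Of places 11 to 15, Slc2a3 (13) had a coding sequence of 1482 nt, and the others were long genes. Huwe1, a giant ubiquitin ligase with a coding sequence of 13137 nt, had 17207 reads but only 1310 reads per kb, which put it at place 1424 by that measure. The deubiquitinase Usp9x had 16839 reads on 7665 nt, the mismatch repair protein Msh6 16590 reads on 4077 nt, and the laminin γ1 chain Lamc1 16302 reads on 4824 nt. Among the 100 genes with the most reads, 37 had coding sequences over 3000 nt and 11 under 1000 nt. Among the 100 highest by reads per kb there was none over 3000 nt and 69 were under 1000 nt. The 2 sets shared 38 genes. Across 12451 genes Spearman's rho of reads with reads per kb was 0.945, a description over genes of 1 library that share the same reads.

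**Figure D2:**
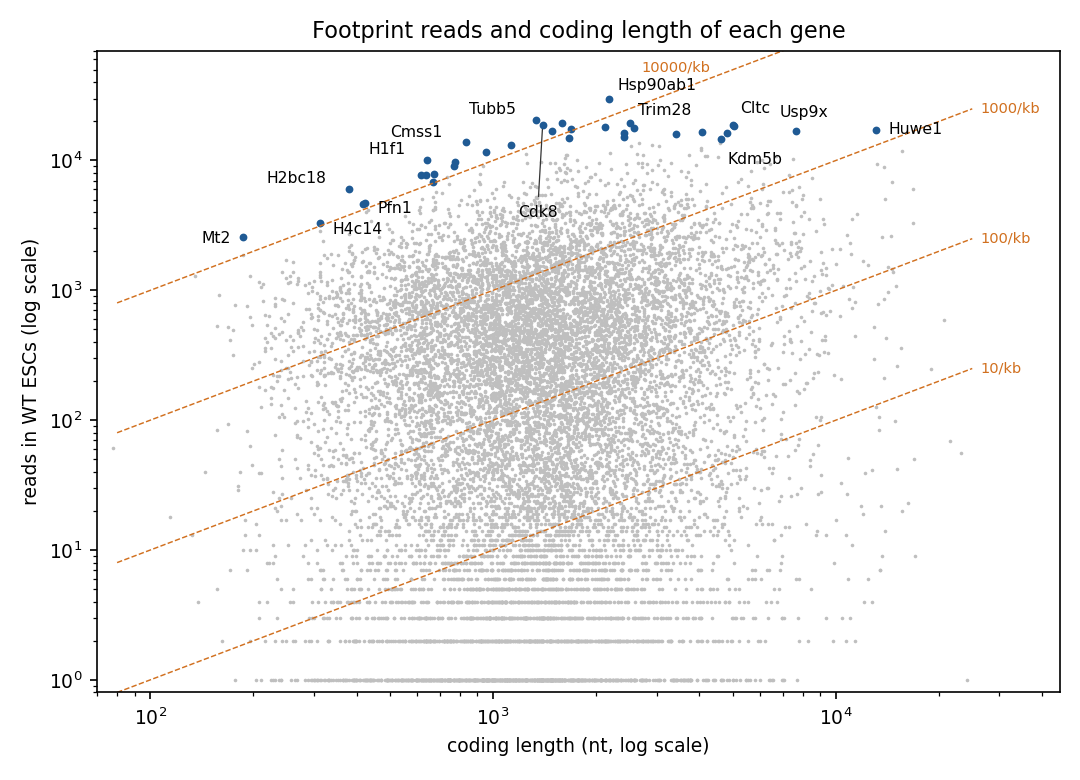
Reads in WT ESCs (log scale) against coding length in nt (log scale), 1 grey point per gene with a read. Blue points are the 20 highest genes by reads and the 20 highest by reads per kb, some of them named, and dashed lines mark equal reads per kb. Mt2 (2582 reads on 186 nt) and Huwe1 (17207 reads on 13137 nt) stand at opposite ends of the length range of the named genes.

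By reads per kb the top places went to short coding sequences, many of them histones. Cmss1 was first with 16826 reads per kb (13982 reads on 831 nt, no window copied). Where on Cmss1 these reads lie was not tested. H2bc18, a replication-dependent H2B histone, had 15777 reads per kb, and H1f1, a linker histone that binds the DNA between nucleosomes, 15620. Tubb5 had 15367 reads per kb. Mt2, a metallothionein that binds zinc and copper, had 13882 reads per kb from 2582 reads on only 186 nt. Hsp90ab1 (13789), Cdk8 (13399), the ribosomal protein Rpl8 (12494), the ribosome-bound scaffold Rack1 (12155) and Atp5b (12139) followed. Of these genes, Tubb5, Hsp90ab1, Cdk8 and Atp5b were among the 20 highest by reads as well. The linker histones H1f2, H1f5 and H1f3, the 14-3-3 protein Ywhae, β-actin (Actb), profilin (Pfn1), the glucose transporter Slc2a3, the mitochondrial protein Chchd10 and the histone H4c14 were also among the 20, at 12003 to 10324 reads per kb.

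Dividing by countable length moved genes with many copies in the genome upwards. It also raised short genes without copies, such as Mt1 (10038 to 11742), since a coding sequence holds fewer windows than bases. Eef1a1, the elongation factor that brings aminoacyl-tRNAs to the ribosome, had 2726 reads per kb and place 478, but 89.6% of its windows were copied, and it had 26851 reads per countable kb and place 4. Hsp90aa1, the inducible Hsp90, went from 1963 reads per kb to 28065 per countable kb, with 92.9% of its windows copied. The order of the 2 Hsp90 genes depended on this: Hsp90ab1 was 7.03-fold above Hsp90aa1 per kb and 0.679-fold of it per countable kb. Gapdh, a glycolytic enzyme used as a reference gene, had 27 reads in all, and 100% of its windows were copied. Eef1a1, Hsp90aa1 and Gapdh were named after their values had been seen. The 100 highest genes per kb and per countable kb had 67 genes in common.

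The genes were sorted into 33 function groups. Splicing factors and hnRNP proteins, which bind and process new transcripts, held the largest share of counted footprints at 3.96% (3.94 to 3.97%). The ubiquitin and SUMO system held 3.25%, signalling kinases, phosphatases and GTPases 3.10%, chromatin regulators 3.07%, and DNA replication and repair 2.74%. By reads per kb, oxidative phosphorylation came first with 3.92%, then splicing with 3.38%, histones with 3.16%, signalling with 2.86% and vesicle traffic with 2.77%. Genes in none of the groups, 9888 with a read, held 45.1% of reads. This order holds for reads as counted, and copied windows differ between groups. Their median was 97.1% for cytoplasmic ribosomal protein genes and 0.55% for splicing genes. Only 12 of the 77 ribosomal protein genes with a read had enough countable windows, so their true share may be larger. Groups also differ in genes with 2 or more entries, whose shared reads were given to no gene. Such genes were 67 of 211 chromatin regulators and 63 of 220 splicing genes. Among histones they were 1 of 78, and among oxidative phosphorylation genes 10 of 102. Group size differs, so the share of reads was also divided by the group's share of genes with a read. This ratio was highest for protein folding chaperones (6.49), followed by endoplasmic reticulum (ER) translocation and folding (5.38), elongation and termination factors (4.52), replication and repair (4.50) and aminoacyl-tRNA synthetases (4.49). It was lowest for zinc finger proteins, at 0.452. Of the groups with the largest shares of reads, splicing had 3.09, chromatin regulators 2.59 and the ubiquitin and SUMO system 1.51. Signalling, with 418 genes with a read, had 0.986, so its share of reads was near its share of genes.

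The place of oxidative phosphorylation rested on short genes. Its median coding length was 414 nt, against 1344 nt over all genes with a read. It fell to the fifth place with 2.75% when coding sequences under 300 nt were left out, and to the fourth with 3.05% when genes with 10% or more copied windows were left out. Histones held 3.16% of reads per kb and 0.859% among genes with under 10% copied windows.

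**Figure D3:**
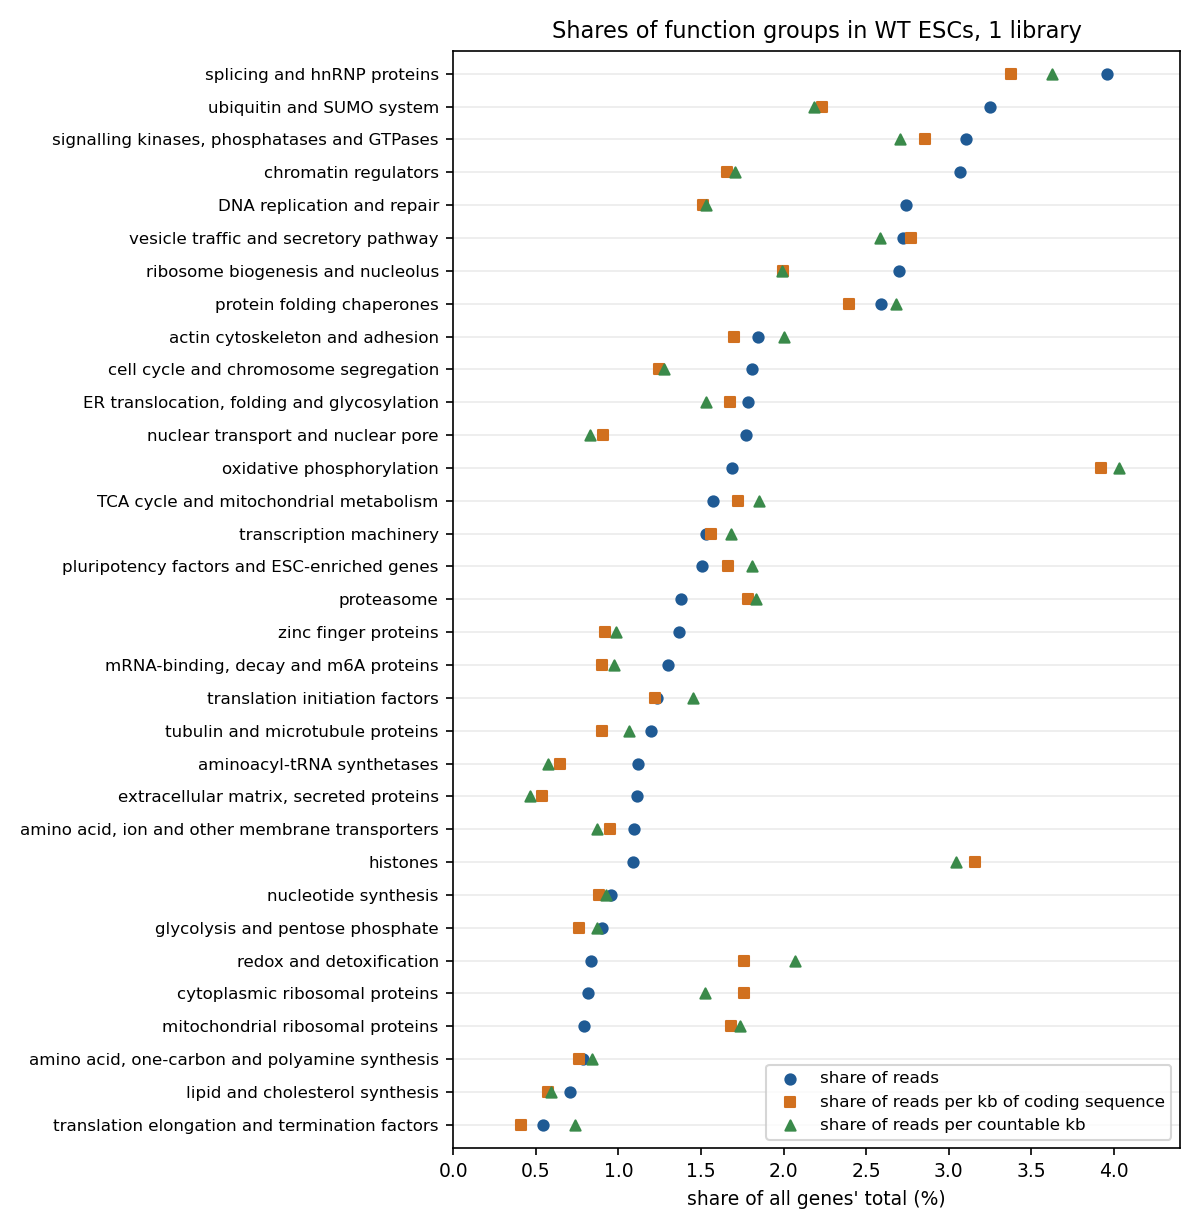
Share of all genes' total (%) held by each of 33 function groups, by reads (circles), reads per kb (squares) and reads per countable kb (triangles). Histones and oxidative phosphorylation stand far to the right of their read shares on both length-corrected measures, while chromatin regulators and DNA replication genes move left.

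Genes that make protein, namely cytoplasmic ribosomal proteins, initiation, elongation and termination factors and aminoacyl-tRNA synthetases, together held 3.71% of reads (3.70 to 3.73%), 4.04% of reads per kb and 4.28% per countable kb. These 174 genes with a read were 1.31% of such genes. The share per countable kb covers only 96 of them, among them 12 of 77 ribosomal protein genes. Most ribosomal protein genes have processed pseudogenes. The median ribosomal protein gene had 97.1% of its windows copied, and with genes of 10% or more copied windows left out, the share was 2.41% of reads and 2.07% of reads per kb. Cytoplasmic ribosomal proteins had a read in 77 of 88 genes and held 0.816% of reads.

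Some of the ribosomal protein genes that could be counted lay close together per countable kb, and others stood far lower. Rpl8, Rps3 and Rpl4 had 12494, 10137 and 7621 reads per kb, and Rps9, Rps14 and Rpl13a, with 58.2%, 69.5% and 72.3% of windows copied, had 5538, 4265 and 3784. Per countable kb these 6 genes had values from 13590 (Rps3) to 14847 (Rps14). Rplp0, a protein of the ribosomal stalk, stood lower at 7974 reads per countable kb. The paralogs Rpl7l1, Rpl39l and Rpl10l had between 4055 and 4835 reads per countable kb, and Rpl3l had 44.3. A read and at least 100 countable windows were found in 12 ribosomal protein genes, from which these were taken, a choice made after the values of copied windows had been seen.

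Among elongation factors, Eef2, which moves the ribosome along the mRNA, had 17911 reads and 6950 reads per kb (10770 per countable kb). Eef1b2, which recharges Eef1a1 with GTP, had 6501 reads per kb and the release factor Etf1 3788. Per kb Eef1a1 was 0.392-fold of Eef2 and per countable kb 2.49-fold, the latter from 141 countable windows of Eef1a1. Among initiation factors the most reads lay on Eif3a (12069), Eif3c (10945) and Eif3l (7244), subunits of the eIF3 complex that prepares the small ribosomal subunit. By reads per kb Eif4ebp1, an inhibitor of the cap-binding factor eIF4E and a target of mTOR, led with 5257, before Eif4h with 4304. The synthetases Aars and Gars, which charge alanine and glycine tRNAs, had 13230 and 11482 reads, and 4551 and 5243 reads per kb. Ncl, nucleolin, which acts in ribosome assembly, had 18187 reads and 8563 reads per kb.

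Mitochondrial ribosomal proteins had a read in 74 of 79 genes and a median of 1351 reads per kb. The highest were Mrpl17 (4113 reads per kb), Mrps14 (3341) and Mrpl24 (3250). Few of their windows were copied (median 0.112%), and they held 1.68% of reads per kb, against 1.76% for the cytoplasmic ribosomal proteins as counted.

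Transcripts of ribosomal proteins and translation factors often begin with a C followed by a run of pyrimidines, the 5′ terminal oligopyrimidine (TOP) motif, through which mTOR signalling controls their translation. A C followed by at least 4 C or T bases, beginning within 2 bases of the annotated RefSeq start on the gene's own strand, was found in 17 of 58 ribosomal protein genes with a promoter entry (29.3%) and in 9 of 37 initiation factors (24.3%). It was found in 3 of 26 synthetases (11.5%) and 1 of 12 elongation and termination factors (8.33%). The share was 9.76% over all genes with a read and 8.96% over the 27025 promoters of the table. When genes were cut by level into 10 equal groups (deciles), it ran between 8.76% and 10.9% without order. The start regions below are shown to make the motif visible. Each spans 10 bases before to 20 bases from the annotated start in RefSeq, build GRCm38.p6, and capitals mark the run where one was found. They lie at chr9:78481705-78481734 (minus strand) for Eef1a1, chr7:45128726-45128755 (minus) for Rpl13a, chr7:108934405-108934434 (plus) for Eif3f, chr7:99483690-99483719 (minus) for Rps3 and chr10:81176621-81176650 (plus) for Eef2.
Eef1a1: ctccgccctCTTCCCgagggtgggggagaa
Rpl13a: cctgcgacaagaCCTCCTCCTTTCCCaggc
Eif3f: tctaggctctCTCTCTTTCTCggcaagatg
Rps3: aagggtcgccgcgctgcgcggcgtcattgc
Eef2: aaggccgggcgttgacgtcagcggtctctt
In the last 2 no run of this kind lies in the searched bases, and both genes were among the highest of their groups per kb. No match says only that these letters do not stand at the annotated start.

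Chaperones, which fold new proteins, took 2.59% of reads with 53 genes, and 13 of the 100 genes with the most reads were chaperones, more than of any other group. Behind Hsp90ab1 came Hspa4 (12836 reads), an exchange factor of the Hsp70 cycle, and Cct7 (11101 reads) of the CCT chaperonin that folds actin and tubulin. Fkbp4, a partner of Hsp90, had 7065 reads per kb. In the ER, the Hsp90 paralog Hsp90b1 had 15158 reads, the calcium-binding chaperone Calr 11196 and the disulfide isomerase Pdia3 9594. Their levels were 6292, 8950 and 6320 reads per kb. The median ER gene stood at 2187 reads per kb and the median chaperone at 2075.

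Oxidative phosphorylation, the respiratory chain with ATP synthase, had a read in 93 of 102 genes and a median of 2401 reads per kb. Atp5b had 12139 reads per kb and Atp5a1, the α subunit, 8957. The intact enzyme holds α and β in equal number, and per countable kb Atp5b was 1.45-fold above Atp5a1. Of the membrane ring, Atp5g3 had 9366 reads per kb, while Atp5g2 had 12 reads and Atp5g1 none, both with 100% of windows copied. These 3 genes encode the same mature ring protein, so their reads cannot be set against the ring as a whole. Atp5d and Atp5e of the central stalk had 5503 and 5818 reads per kb. The γ subunit Atp5c1 had only 90.3 reads per kb, with 97.3% of its windows shared between its 2 entries. Uqcrc1, of complex III, had 6237 reads. In the mitochondrial matrix and carriers, the phosphate carrier Slc25a3 (6380 reads per kb), the outer membrane channel Vdac1 (6211) and malate dehydrogenase Mdh2 (5966) led.

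Glucose uptake and its use showed 1 gene far above the others as counted: Slc2a3 had 16760 reads and 11309 reads per kb, against 3761 for its paralog Slc2a1. Of the 32 genes of this group, 22 had a read and enough countable windows. Transketolase (Tkt), of the pentose phosphate pathway, had 4718 reads per kb and the phosphofructokinase Pfkp 3045. Among genes of amino acid and one-carbon synthesis, Asns had 10322 reads per kb, and Cth, which makes cysteine, and Mthfd2, a mitochondrial folate enzyme, had 3350 and 3077. The amino acid transporters Slc7a5 and Slc7a3 stood at 4678 and 3605 reads per kb. In nucleotide synthesis, Cad, which carries out the first steps of pyrimidine synthesis, had 10907 reads and 1633 reads per kb, and Gart of purine synthesis 9246 reads and 3048 per kb. In lipid synthesis, fatty acid synthase (Fasn) had 10271 reads and 1367 reads per kb, and the desaturase Scd2 had 3775 reads per kb. Besides Mt2, the metallothionein Mt1 (10038 reads per kb), the glutathione transferase Gsta4 (7761) and the peroxidase Gpx1 (6861 reads per kb) were high among redox genes.

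Several groups of nuclear proteins had members among the highest genes. Histones had a read in 65 of 78 genes and 10 of the 100 highest places per kb, although a median of 80.4% of their windows was copied and only 25 had enough countable windows. All the linker histones named above exceeded 10000 reads per kb, and the core histones H2bc18 and H4c14 did too. Among chromatin regulators, Kdm5b, a demethylase of histone H3 lysine 4, had 14727 reads and Supt16, of the FACT histone chaperone, 8476. In replication and repair, Ddb1 (15922 reads), an adaptor of the CUL4 ubiquitin ligase, topoisomerase Top2a (13645) and the DNA break sensor Parp1 (12910) followed Msh6. Their levels ran from 2975 (Top2a) to 4651 (Ddb1) reads per kb. Hnrnpu led the splicing group with 16155 reads and 6723 reads per kb, and the spliceosomal core protein Snrpd3 had 7184 reads per kb. Cdk1, the mitotic kinase, had 5496 reads per kb, Rcc2, which acts in mitosis, 5428 and the G1 kinase Cdk4 4160. The import receptor Kpnb1 had 11186 reads, and Ranbp1, which binds the GTPase Ran, 6412 reads per kb.

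Degradation and traffic showed the contrast between long and short genes again. The ubiquitin system held 3.25% of reads and 2.24% of reads per kb. Nedd4, a ubiquitin ligase, was high by both (13605 reads, 5107 per kb), and Skp1, the adaptor of SCF ligases, had 6581 reads per kb. The proteasome had a read in 53 of 54 genes with a median of 3205 reads per countable kb. In the secretory pathway the lysosomal membrane protein Lamp1 had 5550 reads per kb and the GTPase Rab1a 5157. Of the secreted proteins, the basement membrane proteins Lamc1, Nid1 (11088 reads) and Nid2 (10911) had the most reads. The collagen-binding protein Sparc (7471) and the growth factor binding protein Igfbp2 (7157) were highest per kb. The median gene of that group had 15.9 reads per kb, so a few members stood far above the rest. The thymosin Tmsb4x, which binds actin monomers, had 9541 reads per kb on a coding sequence of 135 nt.

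Subunits of stable complexes, which are needed in set proportions, were compared within 17 complexes whose subunits are listed in equal number. All 8 subunits of the CCT chaperonin lay between 5053 (Cct4) and 6790 (Cct7) reads per kb, a range of 1.34-fold. Per countable kb they ran over 1.48-fold, from 5458 (Tcp1) to 8062 (Cct7). The 6 MCM subunits of the replicative helicase ran from 1812 (Mcm7) to 3891 (Mcm5) reads per kb. Mcm7 had 55.0% of its windows copied, and per countable kb it was the highest of the 6 at 4076, in a range of 1.35-fold. In the 20S proteasome, Psma5 and Psma3, with over 90% of windows copied, had 347 and 491 reads per kb, 16.4-fold below Psma6 at 5699 in the case of Psma5. The 11 subunits with enough countable windows lay between 4886 (Psma1) and 7140 (Psmb5) per countable kb. In the ATPase ring of the 19S particle the range was 3172 to 4036 per countable kb.

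Over the 16 complexes with at least 2 counted subunits, the median ratio of the highest to the lowest subunit was 2.48 per kb and 1.67 per countable kb. Among subunits with under 10% copied windows it was 1.62 per kb, over the 13 complexes that kept at least 2 of them, so this value is not over the same complexes. The coefficient of variation had a median of 33.4% per kb and 22.5% per countable kb. All genes with a read spanned 628-fold between their 10th and 90th percentiles, a different measure that takes in genes with few reads. The median levels of these complexes ran from 1089 (condensin I) to 6127 (CCT) reads per kb, above the median gene at 121.8. Subunits at 0 were left out of the ratios. The 2 spreads therefore cannot be set against each other. Some complexes kept a wide range. The COP9 signalosome had the widest, 103-fold per kb between Gps1 (31.6) and Cops6 (3264), 8.26-fold per countable kb and 7.90-fold among subunits with under 10% copied windows. Gps1 and Cops5 have 2 entries each, with 95.7% and 90.5% of windows shared, and the subunits with 1 entry ran over 1.96-fold. Replication factor C ran from 760 (Rfc1) to 1510 (Rfc2) reads per kb, and over 3.20-fold per countable kb, where Rfc5 was highest at 2452. Sf3b5, the smallest SF3b subunit, had 5318 reads per kb, against 2025 to 2358 for Sf3b1, Sf3b2 and Sf3b3. Sf3b4, with 84.9% of its windows copied, had 527 reads per kb and 3574 per countable kb. The eIF2 subunits ran over 23.7-fold per kb, and 2 of the 3 with enough countable windows over 3.19-fold per countable kb. The COPI coat ran from 1269 (Copa) to 2747 (Copz1) reads per kb, and the core of the RNA exosome from 914 (Exosc3) to 2557 (Exosc5). Subunits at 0 reads were Eif3k, Cops2, Exosc1, Exosc8, Pfdn4, Pfdn6, Rpa1 and Ssrp1, and each of these 8 genes had 2 or more entries.

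**Figure D4:**
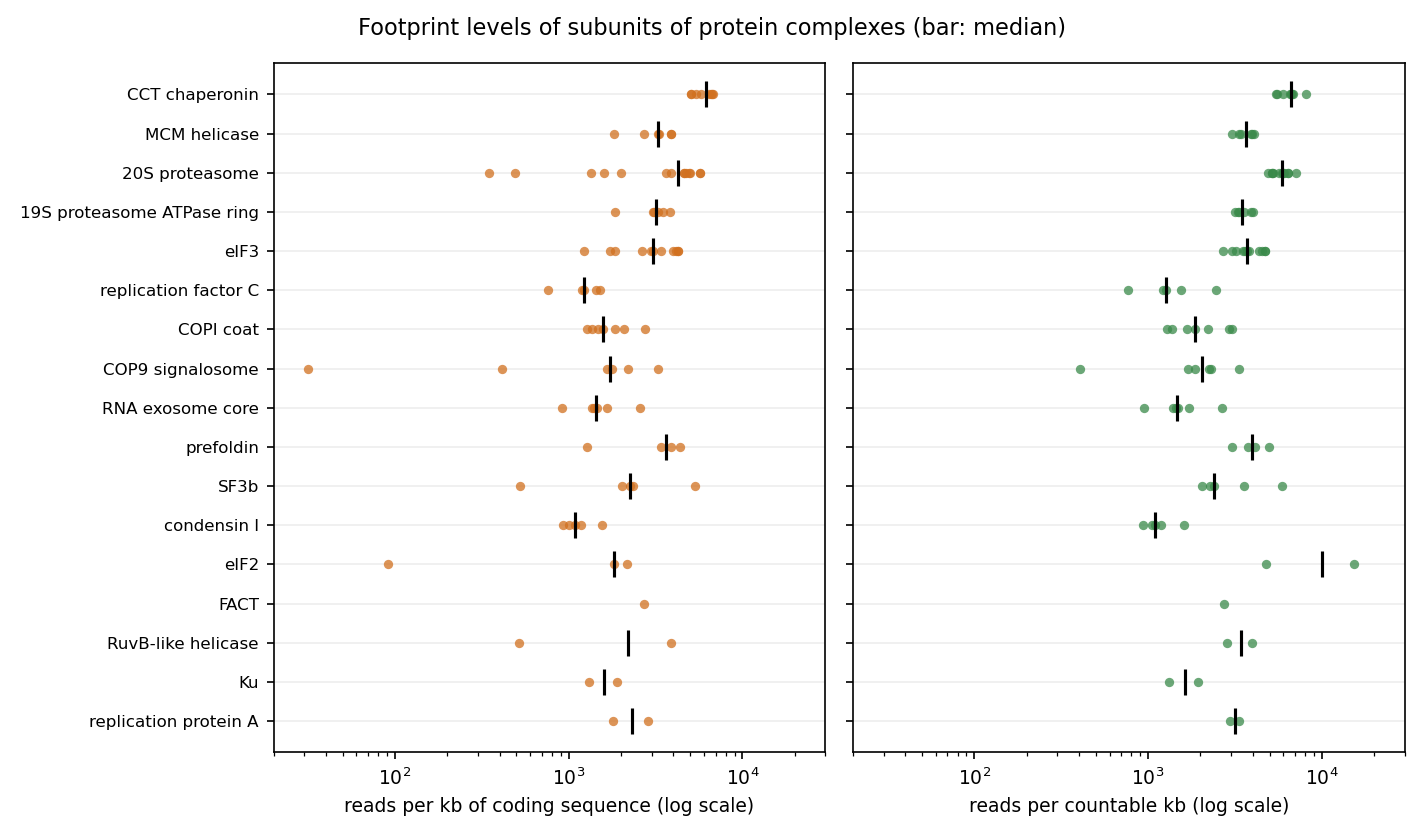
Levels of the subunits of 17 complexes (log scale), per kb of coding sequence on the left and per countable kb on the right, 1 point per subunit with a read and a bar at the median. Low outlying points on the left, such as Psma5 of the 20S proteasome and Mcm7 of the MCM helicase, are absent or moved into the cluster on the right.

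The kinase module of Mediator, which joins Cdk8 or Cdk19 with cyclin C, Med12 and Med13, did not show such proportions. It was looked at after the level of Cdk8 had been seen. Cdk8 had 13399 reads per kb, 56.1-fold above Med12 (239) and 94.6-fold above Med13 (142). Med13l had 365 reads per kb and Med12l 24.2. Cyclin C (Ccnc) had 32.9 with 96.8% of its windows shared, and Cdk19 had no read with 96.3% shared. Of the Cdk8 windows 55.4% were copied, and per countable kb Cdk8 was the highest gene of the library at 30641. What places reads on Cdk8 was not tested.

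Marker lists were set beside the label of naive pluripotency, and the naive list was high. It also holds factors of pluripotency at large, such as Pou5f1 and Sox2. Its level alone therefore cannot tell naive from primed cells. Reads were counted for 17 of 19 naive markers, 14 of them with at least 1000 reads. The median over all 19, those at 0 included, was 2944 reads per kb. Nanog, the homeobox factor that holds cells in self-renewal, was highest with 7844 reads and 8545 reads per kb. Zfp42 (Rex1) had 5202 reads per kb, Sox2 5165, Fbxo15 5143, Tfcp2l1 5044, Klf5 4633, Klf2 3915 and Nr0b1 3801. Pou5f1 (Oct4), the partner of Sox2 on DNA, had 3675 reads and 3470 reads per kb, or 0.672-fold of Sox2. With 78.1% of its windows shared between its 2 entries, it had 11170 reads per countable kb, 2.04-fold above Sox2. Klf4 stood at 2098 reads per kb, Prdm14 at 1423 and Lin28a, an RNA-binding protein, at 559. Esrrb had 1 read, Tbx3 and Sall4 had none. These 3 genes have 2 or more entries with 99.1%, 99.2% and 77.6% of windows shared. Esrrb and Tbx3 had only 23 and 33 countable windows, but Sall4 had 1305 and still no read. The wider group of pluripotency and ESC-enriched genes held 1.504% of reads. In it, E-cadherin (Cdh1), which joins ESCs to each other, had the most reads (9633, or 3628 per kb).

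Markers of other states had fewer reads, though part of them could hardly be counted. The 9 primed or formative markers summed to 1411 reads, 1318 of them on Zic2 (829 reads per kb). Fgf5 had 1 read, T 8, and Otx2 and Dnmt3b none, the last 2 with 100% of windows shared. Of 10 endoderm markers none had 100 reads, and the highest was Gata4 at 46.8 reads per kb. The 8 trophoblast markers summed to 409 reads, with Krt18 at 133 reads per kb and Cdx2 at 5 reads. Per countable kb Tfap2c (94.2% of windows shared) had 390 reads, Krt8 (71.2% copied) 269 and Krt18 164, all above the median of 158 over genes with such a value. Elf5 and Eomes were at 0 with 100% and 99.3% of windows shared. Among 10 fibroblast markers, which would show feeder cells, Vim had 2000 of 2502 reads (1428 reads per kb). Col1a1, Col1a2 and Col3a1 had 240, 96 and 41 reads, Lum had 3, and Postn, Dcn and Fn1 none, each of these last 3 with 2 or more entries. Of 6 neural markers, Tubb3 had 1822 reads and Nes 465, while Pax6 and Map2 were at 0 with 2 or more entries. The 6 markers of the 2-cell-like state found in the table summed to 267 reads, but between 43.6% (Usp17la) and 94.9% (Zscan4f) of their windows were copied. Per countable kb the 5 with enough windows had between 86.5 (Zscan4c) and 192 (Tcstv1) reads. Vim and Tubb3 are also made in other cell types, and the part of other cells in these values was not tested.

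**Figure D5:**
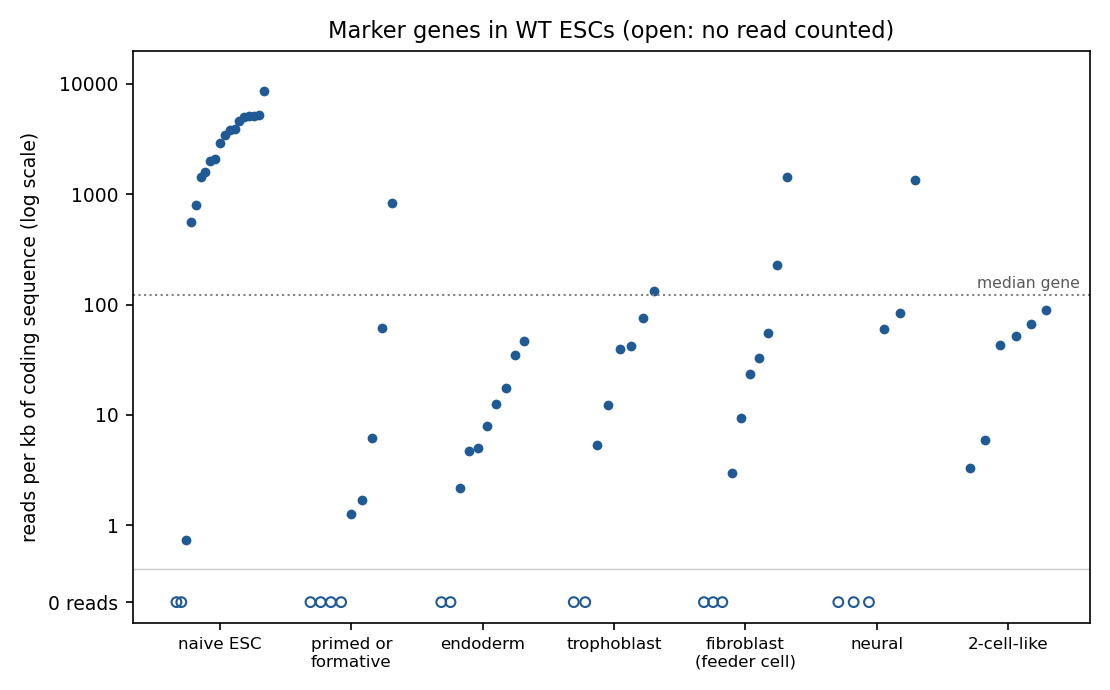
Reads per kb of coding sequence (log scale) of each marker gene, by list, with genes without a read as open circles at the bottom. The dotted line is the median gene with a read (121.8 reads per kb); 16 of 19 naive markers lie above it, and in the other lists Zic2, Krt18, Thy1, Vim and Tubb3 do.

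Genes at the top of the library had shorter coding sequences and, more often, a purine before the start codon than genes at the bottom. With genes cut into deciles by reads per countable kb, the median coding length was 1546.5 nt in the lowest decile and 858 nt in the highest, and 646.5 nt in the 100 highest genes. Across genes, Spearman's rho of this level with coding length was -0.195 (12451 genes, a description, since the level is itself divided by a length). The share of G or C at the last base of codons had medians of 61.8% in the lowest and 60.3% in the highest decile.

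Ribosomes start most readily at an AUG with a purine (A or G) 3 bases before it and a G just after it, the Kozak context. A purine at position -3 was present in 83.8% of genes in the lowest decile, 90.4% in the ninth, 92.7% in the highest and 97.3% of the 73 of the 100 highest genes with a context, against 86.2% over all 10710 genes with one. A context was read where 1 exon holds the bases shown. A G at position +4 was present in 46.2% of the lowest decile, 60.1% of the ninth, 55.3% of the highest and 35.6% of the 100 highest genes. The purine and the G thus did not run in parallel at the top. The start codons of some of the highest genes per kb, with Trim28 as a gene of many reads without the purine, are shown from 9 bases before to 21 bases of coding sequence. Capitals mark position -3, the start codon and position +4. They lie at chr16:57606706-57606735 (minus strand) for Cmss1, chr3:96269743-96269772 (plus) for H2bc18, chr13:23763708-23763737 (plus) for H1f1, chr17:35838033-35838062 (minus) for Tubb5, chr8:94172839-94172868 (plus) for Mt2, chr15:76904304-76904333 (plus) for Rpl8, chr10:128083318-128083347 (plus) for Atp5b and chr7:13024710-13024739 (plus) for Trim28, in build GRCm38.p6.
Cmss1: ctcacgGggATGGcagacgatctgggagac
H2bc18: cggaggAaaATGCcggatccagcgaagtct
H1f1: tcagcaAccATGTcggagacggcgccagtc
Tubb5: accgtaGccATGAgggaaatcgtgcacatc
Mt2: ccactcGccATGGaccccaactgctcctgt
Rpl8: ctcgccGccATGGgccgtgtgatccgaggg
Atp5b: gattccGccATGTtgagtcttgtggggcgt
Trim28: ggcgtgTgaATGGcggcctcggcggcagcg
Every one of these but Trim28 has the purine, while H2bc18, H1f1, Tubb5 and Atp5b lack the G at +4.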

How the data were processed

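Footprints were size-selected after RNase I digestion and a sucrose cushion, per the labels' protocols. Per the submitters' processing notes, the tools were HTSeq 0.6.0, TopHat2 2.0.10, Bowtie, DESeq and CASAVA 1.8.2, on mm10. These sources state no settings, annotation version or treatment of strand. Each deposited value is a signal for 1 RefSeq coding sequence, normalised by the authors with 1 factor for the library. In the WT ESC column 100% of values were whole multiples of 0.778334 within 0.01, so reads were recovered from them. The column was matched to its library by name, and 0 columns were without a label. No count model was run, since 1 library was described and nothing compared.

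Of 27442 entries, 27074 had a coding sequence in the GRCm38.p6 annotation and 359 had no symbol (0.379% of gene reads, each kept as a gene). Summary entries were left out of gene totals. Entries were summed by symbol, and the longest coding sequence gave the length. All 28-nt windows were searched in both strands of the primary assembly; the search was tested on simulated sequence. Shares have 95% exact intervals for counting error; PCR copies are not independent molecules. Python 3.11.15, numpy 2.4.6, pandas 2.3.3 and scipy 1.17.1 were used.

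Named were the 20 highest genes by reads and by reads per kb (coding sequence of at least 150 nt), the 3 highest of each function group by both, complex subunits and markers; Mettl3 is the gene targeted in the series, and others are said to be chosen later. Gene models without a name were counted only. Some genes that these rules take are not reported here. Groups, lists and the tables of complexes were chosen with earlier results of these data known, and the spelling and order of some groups were changed after the files had been read. A gene counts in the first group that lists it. Alternatives were the mean length over entries, genes with 1 entry, under 10% copied windows, a coding length of at least 300 nt, a normalised count of at least 25, and the countable length.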

Additional observations from a re-analysis of the deposited data

How the results depend on the processing

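The countable length was chosen after seeing the data; the other alternatives were fixed earlier. Taking the mean coding length over entries cannot change a share of reads, which uses no length. By reads per kb the 100 highest genes then held 12.15%, against 12.16%, and protein synthesis genes 4.05%, against 4.04%. The share of reads in the 100 highest genes was 13.4% among genes with 1 entry, 14.1% with under 10% copied windows, 13.3% with at least 300 nt, 13.2% with a normalised count of at least 25 and 14.1% with reads scaled to countable length; their share of reads per kb was 12.3%, 13.1%, 12.4%, 12.2% and 15.2% in the same order. The protein synthesis share of reads was 2.41% with under 10% copied windows, 3.73% with a count of at least 25 and 4.24% by countable length. Its share of reads per kb was 2.07%, 4.05% and 4.28% there, and 4.02% with at least 300 nt. The 4.28% covers 96 of the 174 protein synthesis genes with a read. The number of genes that hold 50% stayed within 1.5 times: 882 to 1024 by reads and 862 to 1011 by reads per kb. The median ratio of subunits within complexes, 2.48, was 2.16 among genes with 1 entry, 1.62 with under 10% copied windows (13 of the 16 complexes) and 1.67 per countable length. Of 33 groups, 3 moved by over 1.5 times with under 10% copied windows: ribosomal proteins (0.106% of reads), elongation factors (0.218%) and histones (0.336%). By countable length 1 did, elongation factors, to 0.934% of reads. In each case the alternative's own construction removes or rescales genes with copies. No paired analysis was possible because 1 library was described and no groups were compared. The 48 highest genes have at least 10000 reads each, so counting error is small there. Copied and shared coding sequence limits the other values.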

Other observations

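The genes below belong to none of the function groups and were picked from the highest of them by reads after their values had been seen. Apoe, the apolipoprotein that carries lipids between cells, had 9079 reads and 9700 reads per kb, place 25 of the library, with none of its windows copied. At the cell surface, the tetraspanins Cd9 and Cd81 had 8470 and 7880 reads per kb, and the glycerol and water channel Aqp3 6749. The giant cadherin Fat1 had 8910 reads on 13773 nt, or 647 reads per kb, and Mdn1, an ATPase of ribosome assembly, had 6010 reads on 16749 nt, or 359 reads per kb. Rest, a repressor of neuronal genes, had 7537 reads and 2320 reads per kb. The aminopeptidase Lap3 had 8803 reads and 5643 reads per kb, and Hat1, a histone acetyltransferase, 5507 reads and 4402 reads per kb.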
